A study of Mus musculus with 15 samples.

Results

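Cytochrome P450 enzymes are haem proteins that oxidise fats, steroids, bile acids, vitamins and foreign compounds. The genes were chosen by name: every gene whose symbol has the form Cyp, family number, subfamily letter and gene number, such as Cyp3a13, with Cyp2u1 and Cyp4a10 left out. This gave 89 genes in 38 subfamilies, all protein coding, of 37620 gene identifiers in each count table. Cyp51, Tbxas1 and Ptgis are P450 genes whose names have another form and are described beside the pathway genes.

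The RNA came from the ileum of adult mice, taken in 1 cohort 8 days and in another 3 months after tamoxifen, and 15 libraries of total RNA depleted of ribosomal RNA were sequenced. All animals were given 10 mg tamoxifen by gavage, 2 times a day on every second day for 5 days. The animals labelled mutant were Rfx6f/f; Vilin-CreERT2: both alleles of Rfx6, a transcription factor of hormone-producing cells, were flanked by loxP sites, and an inducible Cre was driven by the villin promoter, which works in gut epithelial cells. Controls carried floxed Rfx6 and no Cre. There were 3 controls, all Rfx6f/f, and 4 libraries labelled mutant at 8 days. At 3 months there were 4 of each, and the controls were 2 Rfx6f/f libraries (replicates 1 and 4) and 2 Rfx6f/+ libraries (replicates 2 and 3). The comparison asks how P450 transcripts differ in the ileum after Rfx6 deletion in the adult epithelium, early and late.

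A P450 enzyme needs electrons from a partner: those of the endoplasmic reticulum take them from the reductase Por, helped by cytochrome b5, and those of mitochondria from ferredoxin. In the small intestine, families 1 to 3 are the first enzymes to meet drugs and food compounds, family 4 oxidises the ends of fatty acids and of their signalling products, and family 26 breaks down retinoic acid. Transcription of many of these genes is switched on by ligand-bound receptors: the dioxin receptor Ahr acts on family 1, the xenobiotic receptors Nr1i2 (PXR) and Nr1i3 (CAR) act on subfamilies 2b, 2c and 3a, and the fatty acid receptor Ppara acts on subfamily 4a.

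Libraries held 30452485 to 54468586 counts at 8 days and 26078462 to 36270306 at 3 months, so that 3 counts amounted to 0.0552 to 0.117 CPM, the usual per-library scaling of counts. Counts of Rfx6 did not fall in the libraries labelled mutant. At 8 days the controls held 50, 50 and 84, against 80, 105, 63 and 44 for the label mutant, and 51, 52, 38 and 43 against 106, 72, 89 and 65 at 3 months, where they were higher by 0.72 on the log2 scale (SE 0.17, adjusted p 0.0347 by edgeR). These counts cover the whole gene and do not show whether the floxed part was lost, so each direction below is that of libraries labelled mutant against libraries labelled control. Markers of epithelium and of distal small intestine were detected in all 15 libraries. Summed CPM of 8 proximal small intestine markers was 1135 to 3142 in 8-day controls and 545 to 3556 in the 8-day libraries labelled mutant, and 220 to 454 against 2239 to 4032 at 3 months. In bulk tissue, fewer cells of a type and less RNA per cell cannot be told apart.

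Of the 89 genes, 44 passed the low-count filter at 8 days and 40 at 3 months, 39 of them at both times. The 44 that passed at neither time had at most 15 counts in any library, 24 of them at most 3, and 7 had no count at all. Among these were Cyp7a1 and Cyp8b1, bile acid synthesis enzymes of the liver, with at most 2 counts, Cyp1a2 with at most 1, Cyp26a1 with at most 7, and 5 of 6 steroid hormone synthesis genes. The adrenal and gonadal genes Cyp11a1 and Cyp21a1 reached 7 and 4 counts. A member could pass the filter through 1 group in which it was high, which may favour genes that differ. The shares below are of the genes tested and are not read as shares of all 89. Of the 89, 31 shared over 10% of their 50-base stretches with another gene, so that their counts are uncertain: how reads that fit several genes were counted is not given in the sources used here.

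Per length of exon, 1 gene stood above the rest in the controls. Cyp4f14, a fatty acid and leukotriene omega-hydroxylase, had a mean of 311 CPM per kilobase of exon over both control groups, and it alone held 28.6 to 39.2% of the summed P450 CPM of each library. Cyp3a13, a foreign compound enzyme of family 3, followed at 90.4 on the same scale. The cohorts differed in order for Cyp2c55, which was above Cyp3a13 in the 8-day controls (93.9 against 88.9) and far below it in the 3-month controls (6.64 against 92.0). Means over both control groups were 50.3 for Cyp2c55 and, for the next genes, Cyp4v3 at 44.1, Cyp4f16 at 41.4, Cyp4f40 at 39.4, Cyp2d26 at 37.7, Cyp3a25 at 36.3, Cyp2c65 at 28.2 and Cyp2j6 at 25.0. The order of these means is not that of each cohort, and it leaves neighbours whose libraries overlap, for example Cyp4v3 with both Cyp4f16 and Cyp4f40 at 8 days. In all, 15 genes reached 10 and 30 reached 1 on this scale. Those of low level included Cyp2r1, a vitamin D activating enzyme, at 0.805, Cyp27b1, another, at 0.110, and Cyp17a1 of steroid synthesis at 0.160.

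**Figure D1:**
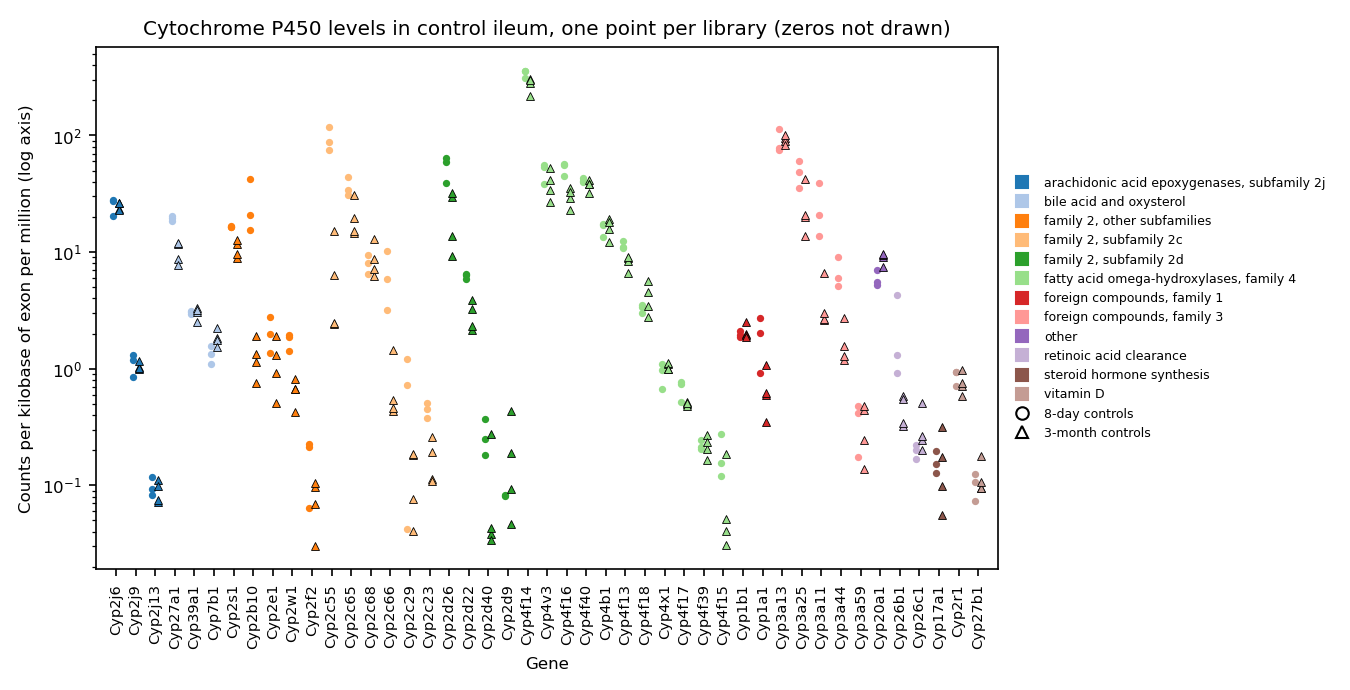
Level per length of the 45 P450 genes that passed the filter at either time, in each control library, as CPM per kilobase of exon on a log axis; circles are 8-day and triangles 3-month controls, colours mark the role and genes are ordered within a role by their mean. Cyp4f14 is highest at a mean of 311, and the triangles of Cyp2c55, Cyp2b10, Cyp3a11 and Cyp2c66 lie below their circles.

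The control groups of the 2 cohorts had unlike levels of a set of these genes. Cyp2b10, a foreign compound enzyme known as a target of Nr1i3, had 43.9, 88.9 and 32.4 CPM in the 8-day controls and 2.40, 2.80, 1.59 and 4.01 CPM in the 3-month controls, a ratio of means of 20.4. The same ratio was 14.1 for Cyp2c55, 8.89 for Cyp2c66, 6.65 for Cyp3a11, 4.84 for Cyp26b1 and 2.15 for Cyp2d22, and it was 0.955 for Cyp1b1, 0.967 for Cyp3a13 and 1.01 for Cyp2j6. The 8-day and 3-month controls did not overlap for Cyp2b10, Cyp2c55, Cyp2c66 or Cyp3a11, while their ranges met for Cyp1b1, Cyp3a13 and Cyp2j6. The 8-day controls also had 282 to 649 CPM of Lct, the lactase of the proximal small intestine, against 8.27 to 39.8 CPM in the 3-month controls. Cohort, age of the animals and time since tamoxifen cannot be told apart, and the part of gut position in these levels was not tested.

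At 8 days no P450 gene passed an adjusted p of 0.05, so none can be said to have changed. The edgeR quasi-likelihood test called 0 of the 44 genes tested, against 0.0915% of all genes (0.0343% higher and 0.0572% lower), and DESeq2 also called 0. At an unadjusted p under 0.05 it picked 7 of them, 3 higher and 4 lower, against 8.80% of all genes. Their median log2 fold change was -0.04, beside -0.00 over all genes. Cyp1b1 and Cyp2j6 were higher without overlap between the groups, where 3.84% of all genes were, and Cyp3a11 was lower without overlap, where 3.80% were.

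The 5 largest 8-day log2 fold changes were negative, in Cyp2c29, Cyp2c66, Cyp2b10, Cyp3a11 and Cyp2c55, and none passed the test. In the first 4 of these, replicates 2 and 4 labelled mutant were the lowest libraries. Cyp2b10 had 29.4, 1.25, 35.4 and 1.07 CPM in the libraries labelled mutant, beside 32.4 to 88.9 CPM in the controls. Replicates 2 and 4 were far below every other 8-day library, while replicate 1 lay just below the lowest control and replicate 3 within the control range. The log2 fold change was -1.71 with an SE of 1.01 and an adjusted p of 0.716. Cyp2c66, of the arachidonic acid metabolizing subfamily 2c, had 11.3, 19.8 and 6.16 CPM in controls and 6.72, 0.508, 6.34 and 0.975 CPM in libraries labelled mutant. Here too replicates 2 and 4 stood apart from the rest, and the other 2 lay within the control range. The log2 fold change was -1.76 (SE 0.79) and the adjusted p 0.581. Cyp2c66 shared 19.5% of its 50-base stretches with Cyp2c65 among other genes.

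Cyp3a11, the best known target of Nr1i2, had 107, 199.9 and 69.4 CPM in the 8-day controls and 59.8, 32.7, 68.2 and 18.8 CPM in the libraries labelled mutant. All 4 were below the lowest control, replicate 3 only just, and replicates 2 and 4 were lowest. The log2 fold change was -1.48 (SE 0.46), with an unadjusted p of 0.0112 and an adjusted p of 0.460. Cyp2c29, a further subfamily 2c enzyme, was scarce, at 2.22, 3.74 and 0.129 CPM in controls against 0.967, 0.117, 0.275 and 0.0325 CPM. Control replicate 3 lay among the libraries labelled mutant, and the log2 fold change was -2.47 (SE 1.03) with an adjusted p of 0.532. Cyp2c55, an arachidonic acid hydroxylase, had 175, 238 and 149 CPM in controls and 39.02, 67.5, 23.8 and 197 CPM in libraries labelled mutant. In this gene replicate 4 was within the control range and the other 3 were below it, and the log2 fold change was -1.20 (SE 0.61) with an adjusted p of 0.651.

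The 2 low libraries also differed from the other 8-day libraries in markers of gut position. Lct was 3.46 and 7.35 CPM in replicates 2 and 4 labelled mutant and 282 to 649 CPM in the other 5 libraries. Gata4, the transcription factor of proximal small intestine, was 0.625 and 1.27 CPM against 12.1 to 24.5 CPM. The receptor gene Nr1i3 followed the same split, at 2.50 and 2.08 CPM against 8.82 to 15.7 CPM. Without these 2 libraries, an alternative chosen after seeing the data, the log2 fold changes were -0.76 for Cyp2b10, -0.92 for Cyp2c66, -0.97 for Cyp3a11 and -1.66 for Cyp2c29, with adjusted p from 0.891 to 0.983, while Cyp2c55 was at -2.57 and became the single call (adjusted p 0.0429, same edgeR test). The part of gut position in these values was not tested.

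**Figure D2:**
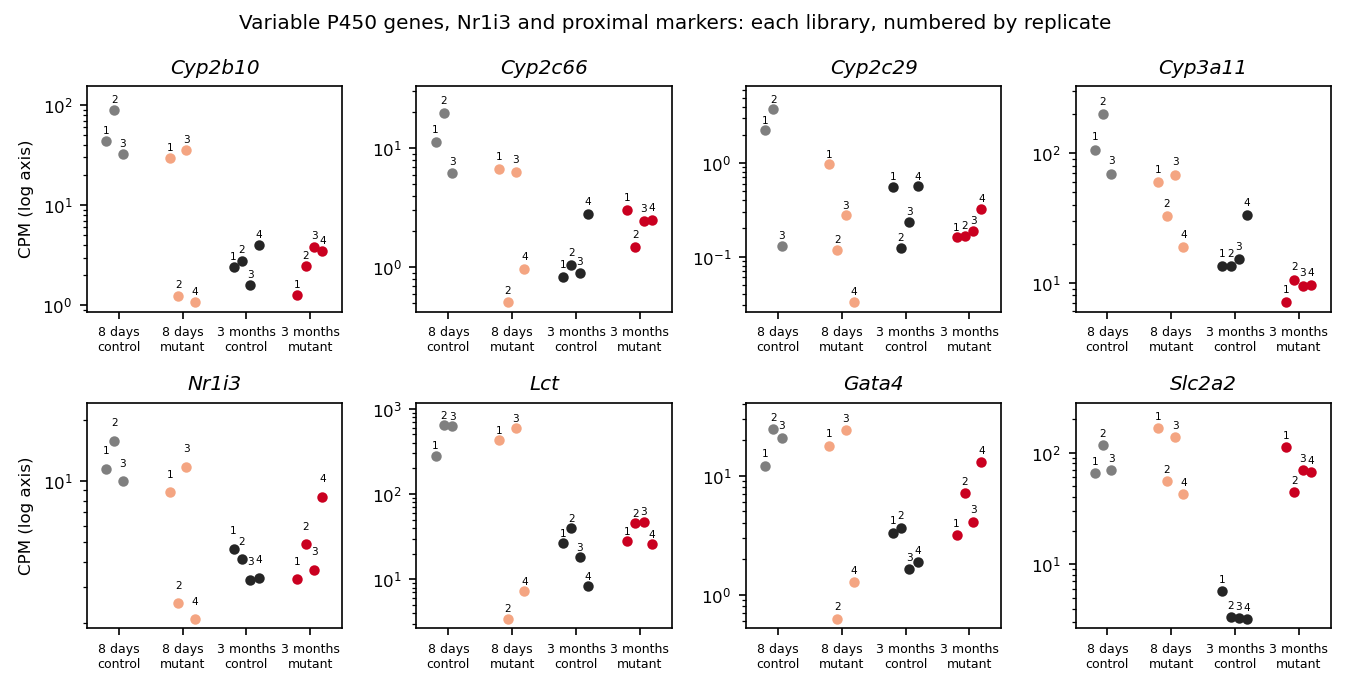
CPM on a log axis, 1 point per library numbered by replicate, in the 4 groups (mutant meaning labelled mutant), for P450 genes Cyp2b10, Cyp2c66, Cyp2c29 and Cyp3a11, for the receptor Nr1i3 and for the proximal markers Lct, Gata4 and Slc2a2. Libraries 2 and 4 labelled mutant at 8 days are far below the other 8-day libraries in Cyp2b10 (1.25 and 1.07 CPM) and Lct (3.46 and 7.35 CPM), and the 3-month controls are at 3.24 to 5.71 CPM of Slc2a2.

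Of the other 8-day genes with an unadjusted p under 0.05, Cyp2c65 had a log2 fold change of -0.42 (SE 0.14), Cyp3a25 of -0.46 (SE 0.16), Cyp1b1 of 0.33 (SE 0.13), Cyp2j6 of 0.40 (SE 0.15) and Cyp4f18 of 0.79 (SE 0.29), with adjusted p from 0.460 to 0.495. Cyp4f18, known for its role in leukocytes, had 5.57, 6.31 and 6.53 CPM in controls and 6.05, 8.56, 14.9 and 13.003 CPM in libraries labelled mutant. Replicates 3 and 4 were high and replicate 1 lay within the control range. The immune marker Ptprc was high in the same 2 libraries, at 160.2 and 172 CPM against 65.0 to 92.4 CPM in the other 5, and its part in the Cyp4f18 values was not tested. Cyp4f14 was 831 ± 63.3 CPM (SD, n = 3) in controls and 832 ± 111 CPM (SD, n = 4) in libraries labelled mutant, a difference smaller than the spread between replicates.

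At 3 months the edgeR test called 7 P450 genes higher in the libraries labelled mutant and 0 lower, while DESeq2 called the same number higher and Cyp3a11 lower. They were Cyp4f16, Cyp1b1, Cyp2j6, Cyp2j9, Cyp2d22, Cyp1a1 and Cyp26b1, with rises of 0.80 to 2.22 on the log2 scale. The 7 were 17.5% of the 40 genes tested, where 9.28% of all genes were called, 4.96% higher and 4.32% lower. Of the 40, 17.5% were higher without overlap between the groups, where 9.70% of all genes were. These are the same 7 genes, so this adds no support to the calls. Over the 40 genes the median log2 fold change was 0.23, with 29 positive and 11 negative, beside a median of 0.01 over all genes.

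Both family 1 genes tested rose. Cyp1a1 (ENSMUSG00000032315), the inducible enzyme that oxidises polycyclic aromatic compounds, had 0.974, 1.66, 1.71 and 2.99 CPM in controls and 8.22, 3.17, 8.34 and 14.6 CPM in libraries labelled mutant. The groups did not overlap, though control replicate 4 came close to replicate 2 labelled mutant. The log2 fold change was 2.22 (SE 0.47), with an adjusted p of 0.0257 by edgeR. Cyp1b1 (ENSMUSG00000024087), which oxidises oestrogens and aromatic compounds outside the liver, had 11.5, 14.7, 11.4 and 10.9 CPM in controls and 20.9, 18.6, 24.3 and 21.04 CPM in libraries labelled mutant. Every library labelled mutant was above every control, and the log2 fold change was 0.80 (SE 0.12) with an adjusted p of 0.00904. The third gene, Cyp1a2, was not detectable at this depth beyond 1 count in any library. Cyp1a1 shared 3.43% of its 50-base stretches with other genes, most with Cyp1a2, and Cyp1b1 shared none.

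Of the arachidonic acid epoxygenases of subfamily 2j, 2 of the 3 genes tested rose. Cyp2j6 (ENSMUSG00000052914), the most abundant of them in this tissue, had 94.3, 84.6, 83.4 and 95.1 CPM in controls and 267, 132, 204 and 194 CPM in libraries labelled mutant. The controls lay close together and all 4 libraries labelled mutant were above them. The log2 fold change was 1.16 (SE 0.18) and the adjusted p 0.0103. Cyp2j9 (ENSMUSG00000015224) had 3.34, 3.47, 3.38 and 3.87 CPM in controls and 8.77, 4.95, 6.85 and 7.33 CPM in libraries labelled mutant. As in Cyp2j6, replicate 2 was the lowest and replicate 1 the highest of the libraries labelled mutant, and the log2 fold change was 0.99 (SE 0.17) with an adjusted p of 0.0151. Cyp2j13, at under 1.5 CPM everywhere, had a log2 fold change of 1.05 and an adjusted p of 0.0933, and its groups overlapped. Without replicate 2 labelled mutant it was called, at 1.27 with an adjusted p of 0.0376. The 5 others of the subfamily did not pass the filter.

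In family 4, Cyp4f16 rose alone among 10 genes tested. Cyp4f16 (ENSMUSG00000048440), which belongs to the leukotriene and fatty acid hydroxylases of subfamily 4f, had 108, 70.7, 89.4 and 100.5 CPM in controls and 293, 181, 247 and 320.1 CPM in libraries labelled mutant. The groups stood well apart, and its log2 fold change was 1.50 (SE 0.19) with an adjusted p of 0.00606, the smallest of the P450 genes. It shared 17.4% of its 50-base stretches with other genes, most with Cyp4f37, which had at most 5 counts in any library. The far more abundant Cyp4f14 was 671 ± 98.2 CPM (SD, n = 4) in controls and 711 ± 103 CPM (SD, n = 4) in libraries labelled mutant, within the spread between replicates. Cyp4v3 and Cyp4f40 had log2 fold changes of 0.40 (SE 0.27) and -0.12 (SE 0.09), and neither passed the test.

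Cyp2d22 (ENSMUSG00000061740), a drug-metabolizing enzyme of subfamily 2d, had 8.39, 9.0, 12.7 and 15.3 CPM in controls and 29.3, 21.5, 23.1 and 23.6 CPM in libraries labelled mutant. All libraries labelled mutant were above the controls, and the log2 fold change of 1.11 (SE 0.19) had an adjusted p of 0.0158. Its relative Cyp2d26, with which it shared part of 4.13% of its 50-base stretches, had 53.6, 16.7, 24.6 and 57.2 CPM in controls and 156, 56.1, 57.2 and 71.6 CPM in libraries labelled mutant. The 2 Rfx6f/f controls were higher than the 2 Rfx6f/+ controls, and 1 of them, replicate 4, reached the range of the libraries labelled mutant, and the log2 fold change of 1.17 (SE 0.46) had an adjusted p of 0.133.

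Cyp26b1 (ENSMUSG00000063415), which clears retinoic acid, had 1.74, 3.13, 1.83 and 2.96 CPM in controls and 6.29, 9.41, 5.78 and 3.595 CPM in libraries labelled mutant. The groups did not overlap, and the log2 fold change was 1.37 (SE 0.31) with an adjusted p of 0.0315. Cyp26c1, of the same pathway, had a log2 fold change of -0.11 (SE 0.38), and Cyp26a1 did not pass the filter.

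**Figure D3:**
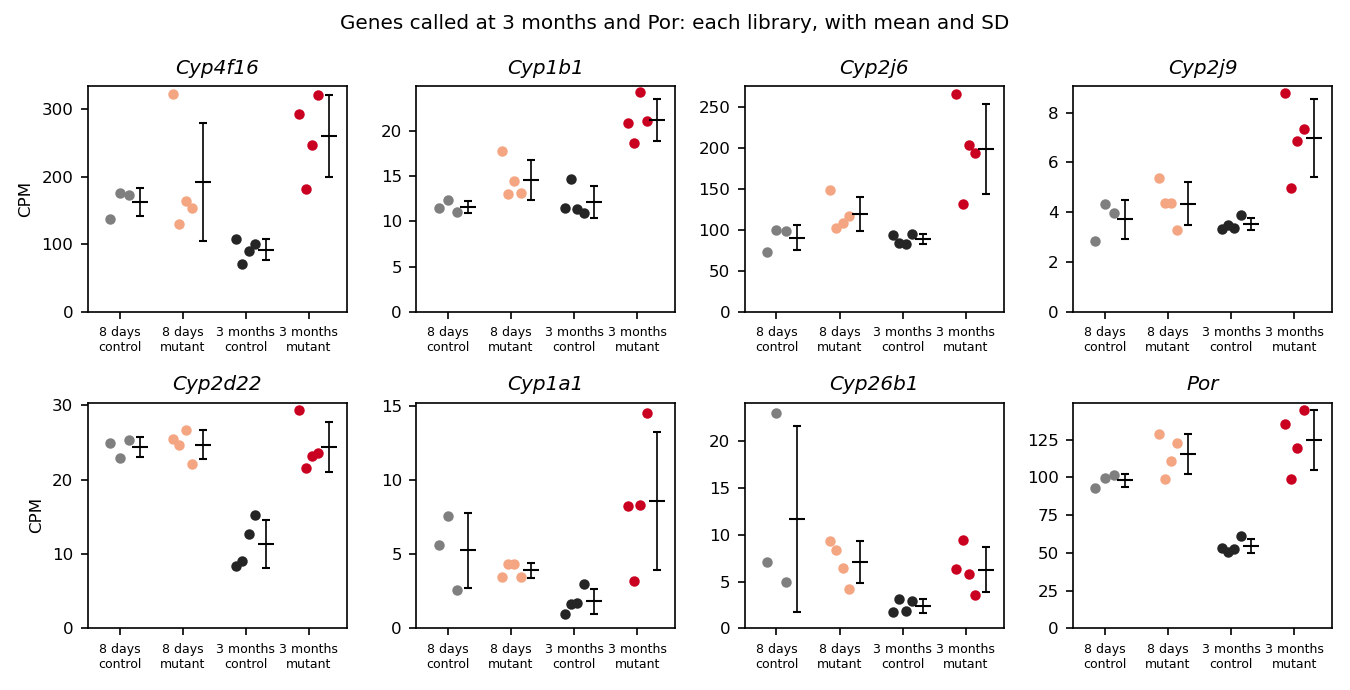
CPM of the 7 P450 genes called at 3 months and of the reductase Por, 1 point per library in each of the 4 groups (mutant meaning labelled mutant), with the group mean and SD beside the points; each panel starts at 0. In all 8 genes the 3-month libraries labelled mutant lie above the 3-month controls, and 3-month libraries labelled mutant have 24.4 CPM of Cyp2d22 on average where 8-day controls also have 24.4.

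No gene of subfamily 2c, of family 3 or of subfamily 2b was called by edgeR at 3 months with all libraries in the fit. Of 5 subfamily 2c genes tested, 4 were positive, with a median log2 fold change of 0.32, and of 5 family 3 genes 2 were positive, with a median of -0.67. Cyp3a11 had 13.4, 13.5, 15.1 and 33.4 CPM in the 3-month controls and 7.03, 10.5, 9.49 and 9.61 CPM in libraries labelled mutant. All libraries labelled mutant were below all controls, where 9.53% of all genes were lower in this way, and control replicate 4 was far above the other controls. The log2 fold change was -1.04 (SE 0.30) with an adjusted p of 0.0616 by edgeR, while DESeq2 called it with an adjusted p of 0.00526. Without control replicate 4 the edgeR test called it too, at -0.61 with an adjusted p of 0.0413. Cyp2b10 had a log2 fold change of 0.03 (SE 0.37), Cyp3a13 of 0.18 (SE 0.16), Cyp2c55 of -0.78 (SE 0.65), Cyp2c66 of 0.76 (SE 0.41), Cyp2c23 of 0.70 (SE 0.51) and Cyp2c65 of 0.32 (SE 0.28), and none passed the test. Of the bile acid and oxysterol enzymes, Cyp27a1, which starts the acidic pathway of bile acid synthesis, had 18.8, 16.9, 25.3 and 26.1 CPM in controls and 48.5, 37.2, 20.9 and 23.6 CPM in libraries labelled mutant. Replicates 1 and 2 labelled mutant were above the controls and the other 2 within their range, with an adjusted p of 0.187. Cyp7b1 and Cyp39a1, which hydroxylate oxysterols, had log2 fold changes of 0.40 (SE 0.21) and 0.14 (SE 0.13). Cyp2s1, an epithelial enzyme, was at -0.34 (SE 0.15), Cyp2e1, known for oxidising ethanol, at 1.12 (SE 0.53), Cyp2c68 at 0.27 (SE 0.25) and Cyp20a1, of unknown substrate, at -0.17 (SE 0.13), and none of these passed the test.

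The summed CPM of all 89 genes was 1785 ± 248 (SD, n = 4) in the 3-month controls and 2272 ± 375 (SD, n = 4) in the libraries labelled mutant, and the ranges of 1452 to 2032 and 1876 to 2775 overlapped. At 8 days the sums were 2636 ± 355 (SD, n = 3) and 2423 ± 232 (SD, n = 4), which also overlapped.

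Several other measures moved with the 7 rises at 3 months. The counts of called markers below stand beside 4.96% of all genes called higher and 4.32% lower. Of the 8 proximal markers, 3 were called higher and none lower, and their summed CPM did not overlap between groups (220 to 454 in controls, 2239 to 4032 in libraries labelled mutant). Most of that sum was Apoa4, at 159 to 356 and 2096 to 3845 CPM. Slc2a2 and Slc46a1 were also called, while Lct had a log2 fold change of 0.66 (adjusted p 0.321), Gata4 of 1.37 (adjusted p 0.0883) and Onecut2 of -0.05 (adjusted p 0.951). Of the 7 distal markers, 2 were called lower and none higher, with sums of 3248 to 3917 and 1308 to 2171 CPM. Smooth muscle markers summed to 1549 to 1880 CPM in controls and 1690 to 3058 CPM, with 0 of 6 called, fibroblast and endothelial markers to 440.2 to 467 and 477 to 719 CPM, with 2 of 5 higher, and immune markers to 283 to 380.5 and 164 to 255 CPM, with 2 of 7 lower. Adipocyte markers summed to 13.4 to 61.0 and 52.8 to 79.8 CPM, with 1 of 4 higher (Cidec, log2 fold change 1.59, adjusted p 0.00915). Of the epithelial, Paneth and crypt, and pancreatic acinar markers, 0 were called, and the sums of the groups overlapped in each. Hepatocyte markers stayed at 3.22 to 5.98 CPM in sum over both groups, with Alb at 0.0642 to 0.187 CPM. The part of these cell types and of gut position in the 7 rises was not tested.

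The calls at 3 months changed with the controls used and with single libraries. With the 2 Rfx6f/f controls alone, 0 of the 7 passed, with adjusted p from 0.0549 to 0.219 and 36 genes called in all. Their log2 fold changes in that fit were 1.32 for Cyp4f16, 0.92 for Cyp1b1, 1.07 for Cyp2j6, 0.95 for Cyp2j9, 1.04 for Cyp2d22, 2.11 for Cyp1a1 and 1.42 for Cyp26b1, near those with all 4 controls. With the 2 Rfx6f/+ controls alone, chosen after seeing the data, Cyp4f16 and Cyp2d22 passed, with adjusted p of 0.0340 and 0.0351. Leaving out each library in turn, Cyp1b1, Cyp2j6, Cyp2d22 and Cyp4f16 passed in 8 of 8 fits. Cyp2j9 missed the threshold without control replicate 1 or 3, with an adjusted p of up to 0.0512. Cyp1a1 and Cyp26b1 missed it without control replicate 1, 2 or 3 or replicate 1 or 3 labelled mutant, with adjusted p of up to 0.0771 and 0.0894. Cyp26b1 also missed it in a joint fit of all 15 libraries (adjusted p 0.0600).

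The promoters of genes that rose were searched for GCGTG, the core binding letters of Ahr, because 2 of these genes, in family 1, are known targets of it. RefSeq windows of GRCm38.p6 from 250 bases before to 50 bases after a start site were available for 72 of the 89 genes and for 6 of the 7 that rose (all but Cyp2d22). GCGTG on either strand was found in 4 of these 6 windows. It was found in 17 of 82 windows of P450 genes (20.7%) and in 32.4% of all 32851 windows. The direct repeat of nuclear receptors with a spacer of 1 base was in 0 P450 windows and 0.0396% of all, and a looser form with 1 base of each repeat free, which includes it, in 2 P450 windows (2.44%) and 0.381% of all. The 250 bases before the RefSeq start of the 4 genes that hold it follow, and those of the 2 without it are not printed, 5′ to 3′ on the strand of the gene, with the motif in capitals (CACGC where it lies on the opposite strand). The GENCODE M21 annotation has a further start of Cyp1a1 upstream of the one shown.
Cyp1a1 (chr9:57697363-57697612, plus strand): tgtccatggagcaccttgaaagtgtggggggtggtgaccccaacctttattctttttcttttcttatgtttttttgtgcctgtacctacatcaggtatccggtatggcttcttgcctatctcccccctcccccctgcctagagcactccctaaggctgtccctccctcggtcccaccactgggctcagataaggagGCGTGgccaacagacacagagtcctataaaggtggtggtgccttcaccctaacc
Cyp1b1 (chr17:79715062-79715311, minus strand): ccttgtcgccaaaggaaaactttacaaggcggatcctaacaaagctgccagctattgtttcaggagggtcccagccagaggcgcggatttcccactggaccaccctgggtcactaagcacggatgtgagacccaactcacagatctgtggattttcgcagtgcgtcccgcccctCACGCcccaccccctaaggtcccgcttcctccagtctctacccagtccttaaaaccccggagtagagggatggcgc
Cyp2j9 (chr4:96591486-96591735, minus strand): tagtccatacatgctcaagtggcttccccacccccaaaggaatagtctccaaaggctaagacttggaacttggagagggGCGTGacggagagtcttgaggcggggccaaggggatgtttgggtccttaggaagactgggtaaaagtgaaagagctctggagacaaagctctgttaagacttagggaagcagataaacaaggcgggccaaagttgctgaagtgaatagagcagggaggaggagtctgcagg
Cyp4f16 (chr17:32536307-32536556, plus strand): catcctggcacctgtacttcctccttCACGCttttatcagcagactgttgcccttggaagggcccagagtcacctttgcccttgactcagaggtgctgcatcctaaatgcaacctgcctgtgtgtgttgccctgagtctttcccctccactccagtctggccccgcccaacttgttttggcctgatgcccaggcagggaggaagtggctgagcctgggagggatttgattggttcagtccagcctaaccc
The letters began 54 bases before the start in Cyp1a1, 76 in Cyp1b1, 171 in Cyp2j9 and 224 in Cyp4f16. A match is a run of letters and not a measured binding site, and Cyp2j6 and Cyp26b1, which rose too, had none in their windows.

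The genes that serve or switch on P450 enzymes were given by lists chosen with earlier results of these data known. Of 11 genes for electron supply and haem, 1 rose and 1 fell at 3 months, where 4.96% of all genes were called higher and 4.32% lower. Por, the reductase that feeds all P450 enzymes of the endoplasmic reticulum, had 53.3, 50.5, 52.6 and 61.0 CPM in controls and 135, 99.0, 119.8 and 145 CPM in libraries labelled mutant. The groups were far apart, and the log2 fold change was 1.20 (SE 0.12) with an adjusted p of 0.00185. Alas1, the first enzyme of haem synthesis, had 135, 137, 123 and 125 CPM in controls and 85.0, 112, 94.3 and 99.9 CPM in libraries labelled mutant. It fell without overlap, by 0.41 on the log2 scale (SE 0.08) with an adjusted p of 0.0239, though it missed the threshold without control replicate 1, 2 or 3 or replicate 3 labelled mutant (adjusted p up to 0.0691). The cytochrome b5 genes Cyb5a and Cyb5b and the mitochondrial donors Fdx1 and Fdxr did not pass the test.

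Of 17 receptors and receptor partners tested at 3 months, 3 rose and none fell, where 4.96% of all genes were called higher and 4.32% lower. Ahrr, the repressor induced by Ahr, had 12.7, 10.7, 13.9 and 12.4 CPM in controls and 17.02, 20.5, 23.3 and 15.5 CPM in libraries labelled mutant. It was higher in all 4, by 0.62 on the log2 scale (SE 0.14), and its adjusted p was 0.0304. Tiparp, another gene known to be induced by Ahr, had 54.0, 63.8, 56.2 and 55.6 CPM in controls and 77.9, 74.0, 69.3 and 67.1 CPM in libraries labelled mutant, again without overlap, by 0.33 on the log2 scale (SE 0.07, adjusted p 0.0286). Ahrr missed the threshold when any 1 of the 4 controls or replicate 2 or 3 labelled mutant was left out, and Tiparp without control replicate 1 or 3 or replicate 1, 2 or 3 labelled mutant, with adjusted p of up to 0.0844 and 0.0870. Ppard, a fatty acid receptor, rose by a log2 fold change of 0.62 (SE 0.08) with an adjusted p of 0.00613, from 38.6 to 40.9 CPM in controls to 52.6 to 69.1 CPM.

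Ahr itself had a log2 fold change of 0.25 (SE 0.08) with an adjusted p of 0.0904. The xenobiotic receptor genes did not pass either, with log2 fold changes of 0.06 (SE 0.08) for Nr1i2 and 0.39 (SE 0.29) for Nr1i3, nor did Ppara at 0.44 (SE 0.21) or Vdr, the vitamin D receptor, at 0.05 (SE 0.15). Of the P450 genes with other symbols, Cyp51, the sterol demethylase of cholesterol synthesis, rose from 187 to 273 CPM in controls to 335 to 413 CPM, or by 0.74 on the log2 scale (SE 0.12), with an adjusted p of 0.0115. Tbxas1 and Ptgis, which make thromboxane and prostacyclin, had log2 fold changes of 0.30 (SE 0.15) and 0.15 (SE 0.27). With the Rfx6f/f controls alone, Por, Alas1, Ahrr, Tiparp, Ppard and Cyp51 all missed the threshold, with adjusted p from 0.0599 to 0.188, while their log2 fold changes were 1.12 for Por, -0.41 for Alas1, 0.60 for Ahrr, 0.39 for Tiparp, 0.61 for Ppard and 0.63 for Cyp51. At 8 days 0 of the 11, 0 of 18 and 0 of 3 genes of these lists were called, where 0.0915% of all genes were.

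The difference of the genotype effect between the cohorts was tested in a fit of all 15 libraries. Of 45 P450 genes, 1 differed, Cyp2d22, where 0.785% of all genes did and 0.379% in its direction. Its log2 fold change was 0.02 (SE 0.08) at 8 days, with 24.9, 22.9 and 25.3 CPM in controls and 25.5, 24.6, 26.6 and 22.2 CPM in libraries labelled mutant. The groups overlapped at 8 days and were apart at 3 months, and the difference was 1.07 (SE 0.23) with an adjusted p of 0.0496 by edgeR. Of the 4 groups, the 3-month controls had the lowest level, at 11.3 ± 3.24 CPM (SD, n = 4). The 3-month libraries labelled mutant, at 24.4 ± 3.41 CPM (SD, n = 4), were at the level of both 8-day groups. These levels rest on separate scalings of the cohorts, and the controls of the cohorts were not tested against each other. Cyp2d22 remained past the threshold in 4 of 15 fits that left out a library: those without replicate 1 labelled mutant at 8 days, control replicate 4, or replicates 2 or 4 labelled mutant at 3 months, with adjusted p of up to 0.0420 in these. It missed the threshold in the other 11, with Rfx6f/f controls only (1.03, adjusted p 0.198) and with 8-day libraries 1 and 3 labelled mutant only (1.01, adjusted p 0.154).

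Cyp1a1 had the larger difference, 2.62 (SE 0.61), with an adjusted p of 0.0558, and DESeq2 called it with an adjusted p of 0.000904. The edgeR test called it without replicate 1 labelled mutant at 8 days, or at 3 months without control replicate 4 or replicate 2 labelled mutant (adjusted p 0.0448, 0.0448 and 0.0204). At 8 days it had 5.60, 7.61 and 2.56 CPM in controls and 3.49, 4.36, 4.37 and 3.48 CPM in libraries labelled mutant, whose range lay inside that of the controls. At an unadjusted p under 0.05, 10 of the 45 genes differed, all more positive at 3 months, where 16.6% of all genes did. Cyp1b1 and Cyp2j6 had log2 fold changes of 0.33 and 0.40 at 8 days and 0.80 and 1.16 at 3 months. Their differences were 0.45 (SE 0.18) and 0.74 (SE 0.26), with adjusted p of 0.210 and 0.149, and that of Cyp2j6 was called without replicate 2 labelled mutant at 3 months (adjusted p 0.0459). The difference of Cyp4f16 was 1.24 (SE 0.37) with an adjusted p of 0.0973, and without replicate 1 labelled mutant at 8 days it was called, at 1.61 with an adjusted p of 0.00792. Por differed by 0.95 (SE 0.16) with an adjusted p of 0.0254. In it, too, the 3-month controls were the low group, at 50.5 to 61.0 CPM where the 8-day controls had 93.3 to 102 CPM. It missed the threshold without 8-day control replicate 2 or 3, 8-day replicate 3 labelled mutant, or 3-month control replicate 1, 2 or 3, with adjusted p of up to 0.0790. It also missed it with Rfx6f/f controls only (0.90, adjusted p 0.156) and with 8-day libraries 1 and 3 labelled mutant only (0.90, adjusted p 0.0967).

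**Figure D4:**
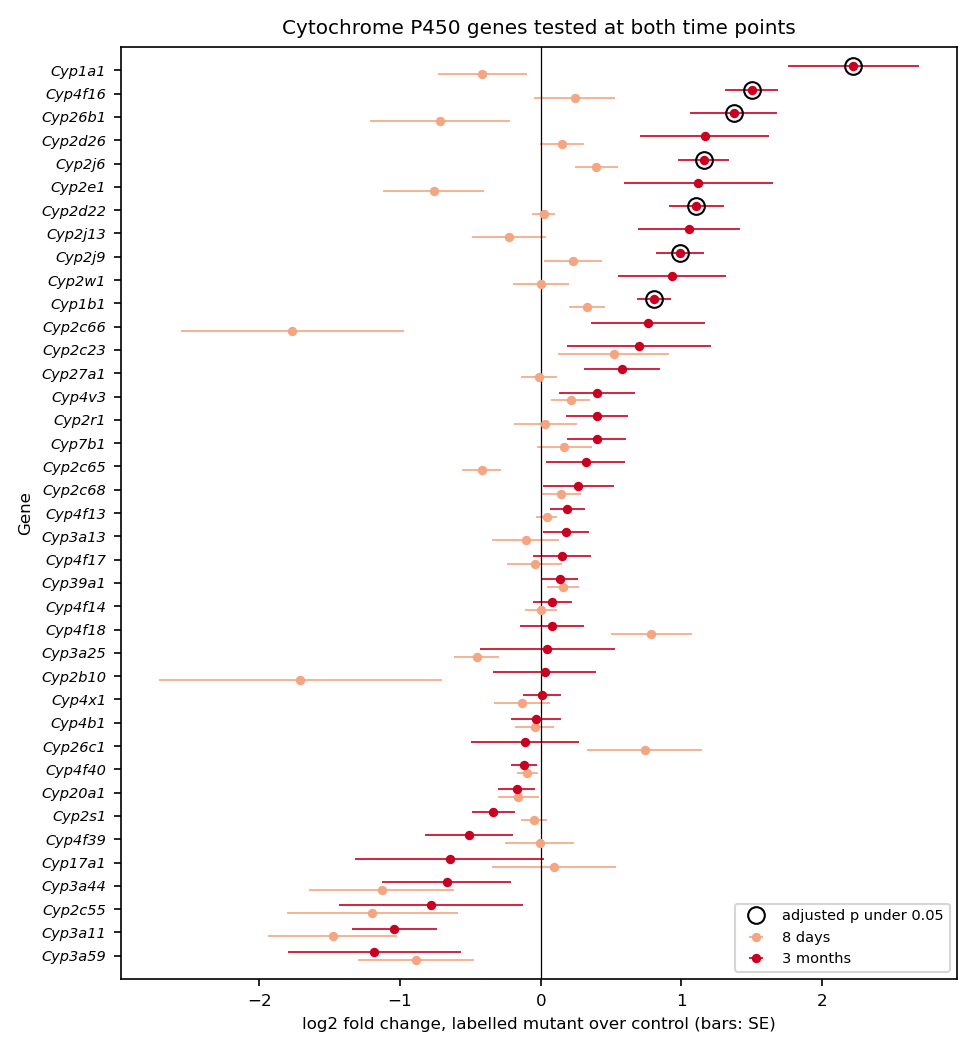
Log2 fold change (libraries labelled mutant over control) with SE of the 39 P450 genes tested at both times, 8 days in light and 3 months in dark red, ordered by the 3-month value; black rings mark an adjusted p under 0.05. The 7 ringed genes are all positive at 3 months (0.80 to 2.22), and no 8-day point is ringed.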

How the data were processed

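Per the labels' protocols, libraries were made from total RNA of the ileum after ribosomal RNA depletion, and the molecule label names polyA RNA. RNA was extracted by 1 of 2 methods, not said which for each sample. The authors deposited unnormalised counts for each Ensembl identifier, with a table for each cohort. Per the submitters' processing notes, mm9 and the tools bcl2fastq 2.17.1.14, Bowtie 1.0.0, TopHat2 2.0.10, Bowtie2 2.1.0 and HTSeq 0.6.1 were used. Their roles, the annotation and strand handling are not given in the sources used here.

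GENCODE M21 (GRCm38) paired 32897 of 37620 identifiers with a symbol (87.4%) and gave exon lengths and overlaps. Identifiers without a symbol held 0.675% of counts. As the counting build was mm9, no gene coordinates were taken from it. Promoters are those of RefSeq on GRCm38.p6.

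Separate fits for the cohorts used the quasi-likelihood test of edgeR 4.0.16 (R 4.3.3), after filterByExpr (minimum count 10) and TMM scaling. The difference between cohorts was the interaction contrast over all 15 libraries. P-values were adjusted by Benjamini-Hochberg over all genes tested (17493 at 8 days, 17085 at 3 months, 17959 for the difference), and a gene was called under 0.05. All tests are two-sided. CPM uses the TMM-scaled library size within the cohort, so levels set across cohorts rest on separate scalings. Groups came from the genotype and time labels, with replicate numbers given by accession order. The titles give each library a number but do not say that it is a separate animal, so p-values measure the spread between these samples, which may be technical. No 2 replicates agreed within sampling noise (lowest chi-square per degree of freedom 12.1 over 21 pairs). Tests were checked on simulated counts.

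Alternatives were DESeq2 1.42.0, limma-voom (limma 3.58.1), RLE factors, TMM after dropping the 20 genes with most counts, an open filter, 10 counts in every sample, robust empirical Bayes, a joint fit, a minimum log2 change of 1 in either direction, only the Rfx6f/f controls, and leaving out 1 library at a time. Leaving out the 8-day libraries 2 and 4 labelled mutant, Rfx6f/+ controls only and TMM in each cohort were chosen after seeing the data. Genes named were those called, the 3 with the highest level in each role, the 5 with the largest fold change per time point where the mean log2 CPM was 0 or more, and the called pathway genes with Por, Ahr, Nr1i2, Nr1i3, Ppara and Vdr. Lct, Gata4, Slc2a2, Apoa4, Slc46a1, Cidec, Onecut2, Ptprc, Alb, Cyp2c23, Cyp4f18, Cyp4f37, Cyp4f40, Cyp7a1, Cyp8b1, Cyb5a, Cyb5b, Fdx1, Fdxr, Tbxas1 and Ptgis and the relatives named beside a member were chosen after their values were seen. The P450 genes, the gene lists and the tests were chosen with earlier results of these data known. Figures were drawn with matplotlib 3.10.9.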

Additional observations from a re-analysis of the deposited data

Results flagged for a closer look

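In 133 checks of groups of 4 libraries for 1 library far from the others, 14 stood out, all in the 3-month groups. A rate of 1 in 20 would give 6.65. That rate assumes independent values of normal spread, while several of the 14 shared a library and some rested on a few counts. It is therefore no chance level here.

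Control replicate 4 was the far library for 5 genes. It had 33.4 CPM of Cyp3a11 against 13.4 to 15.1 in the other 3 controls, 2.82 CPM of Cyp2c66 against 0.835 to 1.04, 0.493 CPM of Cyp2d40 against 0.0614 to 0.0777, 0.458 CPM of Cyp27b1 against 0.244 to 0.272 and 29.5 CPM of Ppara against 23.1 to 24.2. For Cyp2d40 this was 14 counts against only 2 in each of the other 3 controls. The same library had the highest summed level of pancreatic acinar markers, 1128 CPM, where the lowest control had 39.7, and its part in these values was not tested. Control replicate 2 had 14.7 CPM of Cyp1b1 against 10.9 to 11.5, and 0.154 CPM of Cyp26a1, which was at 0 counts in the other 3.

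Replicate 1 labelled mutant was far above the others for 4 genes: 15.8 CPM of Cyp2c55 against 4.32 to 6.18, 156 CPM of Cyp2d26 against 56.1 to 71.6, 1.28 CPM of Cyp2d40 against 0.107 to 0.213 and 52.7 CPM of Ppara against 26.6 to 28.7. Replicate 3 labelled mutant had 11.7 CPM of Cyp2e1 against 3.03 to 3.597, and the highest sums of the 3-month libraries for smooth muscle (3058 CPM), fibroblast and endothelial (719 CPM) and adipocyte markers (79.8 CPM), whose part in this value was not tested. Replicate 2 labelled mutant had 0.132 CPM of Cyp21a1, which was at 0 counts in the other 3, and replicate 4 had 0.320 CPM of Cyp2c29 against 0.161 to 0.187.

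The effect of the genotype label differed between the cohorts for Cyp2d22, by 1.07 on the log2 scale (SE 0.23), and for Por, by 0.95 (SE 0.16). Neither held throughout: Cyp2d22, at an adjusted p of 0.0496 (edgeR), passed in 4 of 15 fits that left out a library and Por in 9 of 15, and both missed the threshold with Rfx6f/f controls only and with 8-day libraries 1 and 3 labelled mutant only.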

How the results depend on the processing

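The count of called P450 genes at 3 months, 7, was 5 to 8 under DESeq2, limma-voom, other scalings and filters, robust empirical Bayes, the joint fit and the fold change minimum. It was 0 with Rfx6f/f controls only and 2 with Rfx6f/+ controls only, fits in which both number and genotype of the controls changed. It was 4 to 9 over the 8 fits that left out a library. At 8 days the count was 0 throughout, except 1 (Cyp2c55) with 8-day libraries 1 and 3 labelled mutant only. The difference between time points, 1 gene, was 2 under DESeq2, with no filter and with 10 counts in every sample, 0 with Rfx6f/f controls only and with 8-day libraries 1 and 3 labelled mutant only, and 0 to 3 over the 15 fits that left out a library. Directions reversed in 5 cases, none of them called: Ppara at 8 days was -0.026 with libraries 1 and 3 labelled mutant only, Ppard at 8 days ranged from -0.031 to 0.27 over fits that left out a library (-0.017 without replicate 3 labelled mutant), and Vdr at 3 months was -0.016 with Rfx6f/f controls only and -0.12 to 0.14 over such fits. The cause of these changes was not tested. No paired analysis was possible because the numbers in the sample titles are not shared between the control and mutant libraries of a time point, and no label pairs them. Genes at or under 3 counts (0.0552 to 0.117 CPM) could not be compared at this depth.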
